A study of Mus musculus with 5 samples.

Results

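The cells described here are the Mmp12-high macrophages of the injured mouse kidney, 462 of the 23797 cells that the authors kept. They were chosen from the immune cells that the authors' deposited table places in cluster 0, a macrophage and monocyte cluster of 6321 cells, as those with at least 5 UMIs (unique molecular identifiers, counted transcript molecules) of Mmp12 and with fewer than 5 UMIs in all of the monocyte genes Vcan, Chil3, Plac8 and Ly6c2. The other 5859 cells of the cluster are the cells they are set against. Whole-kidney cells were profiled with the 10x Genomics 3' v3.1 chemistry at 10 days (d10; mice 3, 4 and 5) and at 48 hours (48h; mice 1 and 2) after ischemia-reperfusion injury (IRI), in which the blood supply of the kidney is stopped and then let back. Each mouse gave 1 library, every mouse was injured, and the labels name no strain, sex, age, genotype or surgical detail. The Mmp12-high cells numbered 133, 152 and 150 in the d10 mice and 17 and 10 in the 48h mice, so that 435 of the 462 came from d10.

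Mmp12 encodes macrophage elastase, a secreted metalloproteinase that cuts elastin and other matrix proteins. Macrophages that take up dead cells, lipid or debris are known in several injured tissues for a program that includes Gpnmb, a membrane glycoprotein of lysosome-rich cells, Fabp5, a carrier of fatty acids in the cytosol, Lgals3, a galactoside-binding lectin, and Spp1, the secreted matrix protein osteopontin. Arg1, which splits arginine into ornithine and urea, is a textbook gene of alternatively activated macrophages. Such cells differ from resident macrophages of the kidney, which are known for complement C1q and scavenger receptors, and from inflammatory monocytes, which carry Ccr2, Ly6c2 and Chil3.

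Summed over cells, Mmp12, Gpnmb, Arg1 and Fabp5, the genes of the label, were higher than in the other cluster 0 cells of each d10 mouse. Gpnmb, Arg1 and Fabp5 were not detected in every d10 cell, as given below. At 48h Mmp12 alone of these genes was higher than in the other cells. Those cells had 22.05 and 30.5 CPM of Gpnmb, 328 and 316 CPM of Arg1 and 158 and 107 CPM of Fabp5 at 48h. Mmp12, which chose the cells, stood at 2362, 2964 and 2551 counts per 1000000 summed UMIs (CPM) in the Mmp12-high cells of the d10 mice and at 714 and 730 CPM in those of the 48h mice. Gpnmb had 614, 867 and 489 CPM at d10, against 4.03 and 8.02 CPM at 48h, where each mouse contributed 1 UMI. Arg1 had 514, 1866 and 869 CPM at d10 and no UMI in the 27 cells of 48h, and Fabp5 had 1412, 1507 and 1343 CPM at d10, against 32.3 and 8.02 CPM at 48h. The 27 cells of 48h are therefore called here by their rule and not as Gpnmb macrophages. They carried the C1q gene C1qa at 5144 and 6105 CPM and the class II chaperone Cd74 at 7124 and 8680 CPM, with Lyz2, the macrophage lysozyme, at 1832 and 706 CPM. Among markers of dendritic cells in the 27 cells, Clec9a had 3 and 6 UMIs, and Flt3, Xcr1, Cd209a, Zbtb46, Ccr7 and Itgae had none. Genes that macrophages share with some dendritic cells were present: the lectin gene Mgl2 had 1351 and 1532 CPM in the 27 cells, against 312 and 183 CPM in the other cells of 48h, and the integrin gene Itgax had 226 and 209 CPM, against 47.0 and 28.9 CPM.

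The summed level of 12 macrophage identity genes was 32210, 31420 and 29290 CPM in the Mmp12-high cells of the d10 mice, against 33390, 36420 and 30400 CPM in the other cluster 0 cells. The 10 proximal tubule markers summed to 655, 88.0 and 376 CPM in them at d10 and to 972, 154 and 996 CPM in the other cluster 0 cells, against 31220 CPM in proximal tubule cells. Of 8 T and NK cell markers, 5 had no UMI in the Mmp12-high cells of d10 (Cd3d, Cd3e, Trac, Gzmb and Cd8a), and the dendritic cell marker Xcr1 had none either. The 8 neutrophil markers summed to 124, 86.8 and 80.5 CPM in the Mmp12-high cells and to 47.6, 95.5 and 119 CPM in the other cells at d10, and 1 of them, the collagenase gene Mmp8, was higher in each d10 mouse, at 15.3, 31.7 and 45.6 CPM against 3.26, 7.48 and 6.73 CPM. The part of these markers in the results was not tested. Dendritic cell markers summed to 95.1, 4.59 and 70.6 CPM in the Mmp12-high cells and to 159, 31.96 and 153 CPM in the other cluster 0 cells at d10.

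The d10 cells were deep. Their median was 20303, 26809.5 and 21068 UMIs per cell, against 11212, 14889.5 and 10468 UMIs in the other cluster 0 cells of the same mice, whereas at 48h the medians were 13924 and 12996.5 UMIs in the Mmp12-high cells and 13105 and 14674.5 UMIs in the others. Of the Mmp12-high cells of d10, 13.5, 20.4 and 10.0% were among the top 5% of their library by UMIs. A rule with a minimum of UMIs takes deep cells more readily. No doublet caller was run, and the part of doublets in the results was not tested. Mouse 4 stood apart among the d10 mice in the cluster as a whole: its other cluster 0 cells had 590 CPM of Arg1, against 83.2 and 117 CPM in mice 3 and 5, and 712 CPM of the class II gene H2-Aa, against 3906 and 4337 CPM. Any pair of libraries shared between 3 and 10 cell barcodes, at most 0.215% of the smaller library.

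The share of Mmp12-high cells was higher in each of the d10 mice than in either 48h mouse. They were 7.17, 9.60 and 8.56% of cluster 0 at d10, with exact (Clopper-Pearson) 95% confidence intervals of 6.03 to 8.44%, 8.19 to 11.2% and 7.29 to 9.97%, against 3.31 and 1.63% at 48h, with intervals of 1.94 to 5.24% and 0.784 to 2.98%. The mean was 8.44% ± 1.22 (SD, n = 3) at d10 and 2.47% ± 1.19 (SD, n = 2) at 48h. Of all kept cells they were 2.98% ± 0.834 (SD, n = 3) at d10 and 0.308% ± 0.0555 (SD, n = 2) at 48h. The difference was 5.97 percentage points of cluster 0 and 2.67 points of kept cells (exact permutation test over mice, two-sided, p = 0.2 each, which is the smallest p that 2 against 3 mice allow). The intervals cover counting error only.

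**Figure D1:**
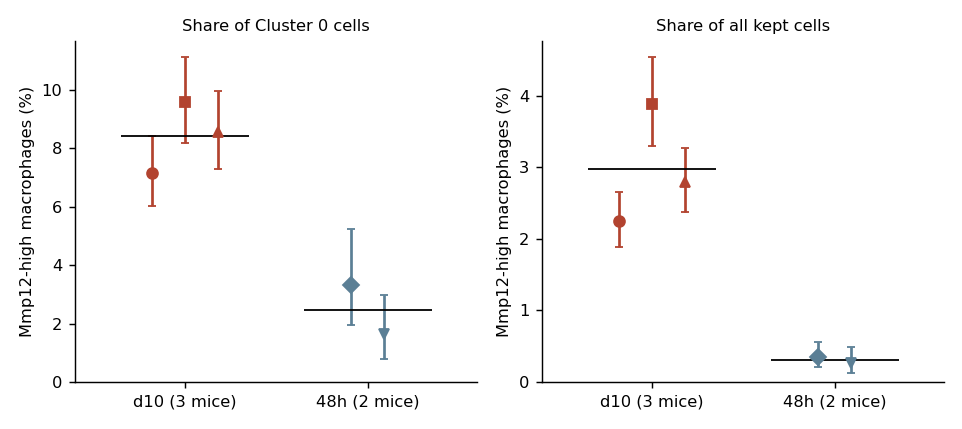
Share of Mmp12-high macrophages among cluster 0 cells (left) and among all kept cells (right), in percent, with 1 point per mouse, exact 95% confidence intervals as bars and the mean of each time as a line. The 3 d10 mice lie between 7.17 and 9.60% of cluster 0, above the 48h mice at 3.31 and 1.63%.

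Few as they are, these cells held most of the Mmp12 transcripts of the cluster. At d10 they gave 93.6, 79.7 and 91.2% of the Mmp12 UMIs of cluster 0 but 12.9, 15.0 and 16.1% of its UMIs, a consequence of the rule that is given here as a description. The Mmp12 count per cell spanned a wide range. Its median was 19, 29.5 and 19 UMIs in the d10 mice, with highest values of 690, 786 and 511, and 8 and 6 UMIs in the 48h mice. Cells with 50 or more UMIs numbered 39, 53 and 45 at d10 and none at 48h. Outside the cluster the gene was nearly absent: of the 513 kept cells with at least 5 Mmp12 UMIs, 8 lay outside cluster 0. Another 43 cluster 0 cells passed the Mmp12 threshold but had 5 or more monocyte UMIs, 35 of them in mouse 4.

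Values just inside and just outside the threshold lay close together. The 39 d10 cells with exactly 5 Mmp12 UMIs had 169 CPM of Gpnmb, 580 CPM of Arg1, 764 CPM of Fabp5 and 1276 CPM of Lgals3, and the 52 cells with 4 UMIs, just outside, had 188, 408, 612 and 1347 CPM of the same genes. The 439 d10 cells with 1 to 3 Mmp12 UMIs had 353, 480, 840 and 967 CPM. Gpnmb and Fabp5 were thus higher in that band than in the cells with exactly 5 UMIs. The 3920 d10 cells with no Mmp12 UMI had 167 CPM of Gpnmb, 151 CPM of Arg1, 473 CPM of Fabp5 and 437 CPM of Lgals3. On the monocyte side, 3 cells had a sum of 4 and 3 cells had a sum of 5.

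At d10 the genes higher in the Mmp12-high cells than in their neighbours of the cluster included Lgals3, Itgax, Cd9, Fn1 and Lpl, and the lower ones included Ccl8, Vcam1 and Selenop. The rule chose the cells by this contrast, so the following values describe them and carry no test. A gene was called when it was at least 2-fold higher, or at least 2-fold lower, in each of the 3 d10 mice, on log2 ratios of CPM with 5 CPM added, among 2896 genes that reached 50 CPM in the mean of either population. Of these, 73 genes were higher (2.52%) and 72 were lower (2.49%), and the median log2 ratio over all of them was 0.02. With every cell thinned to 5000 UMIs the counts were 73 and 73. Without cells that carry 5 or more marker UMIs of another type, which leaves 3, 106 and 21 Mmp12-high cells in mice 3, 4 and 5, they were 40 and 64.

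Lgals3, Itgax and Cd9 were higher in each d10 mouse. Lgals3 had 3352, 3142 and 3207 CPM in the Mmp12-high cells of mice 3, 4 and 5, against 553, 729 and 591 CPM in the other cluster 0 cells (mean log2 ratio 2.37 ± 0.25, SD, n = 3 mice). Itgax, the integrin CD11c, had 329, 281 and 298 CPM, against 50.5, 48.2 and 51.7 CPM (2.48 ± 0.10). The tetraspanin Cd9 had 640, 900 and 562 CPM, against 181, 261 and 160 CPM (1.78 ± 0.02). In these 3 genes, picked among the called ones, the values of the populations did not overlap over the mice. How many of the other measured genes share this was not counted.

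The genes of the label were higher but varied by mouse. Arg1 had 514, 1866 and 869 CPM in the Mmp12-high cells and 83.2, 590 and 117 CPM in the other cells (log2 ratio 2.35 ± 0.62). Gpnmb had 614, 867 and 489 CPM, against 127, 414 and 102 CPM (1.83 ± 0.67). Fabp5 had 1412, 1507 and 1343 CPM, against 439, 860 and 365 CPM (1.45 ± 0.57), and was not called because it was under 2-fold in mouse 4. In mouse 4 all 3 genes were high in the other cells too. After each cell was thinned to 5000 UMIs, which left out 14 Mmp12-high and 686 other cells, Gpnmb was detected in 32.03, 40.8 and 24.7% of Mmp12-high cells, against 12.5, 33.7 and 8.18% of other cluster 0 cells and at most 0.977% of proximal tubule cells. Unthinned, it was detected in 40.6, 55.9 and 35.3% of the Mmp12-high cells. Arg1 was detected in 45.3, 70.8 and 50% of the Mmp12-high cells, against 10.6, 33.4 and 10.9% of the others, and Lgals3 in 98.4, 98.0 and 98.6%, against 62.0, 66.8 and 59.4%.

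**Figure D2:**
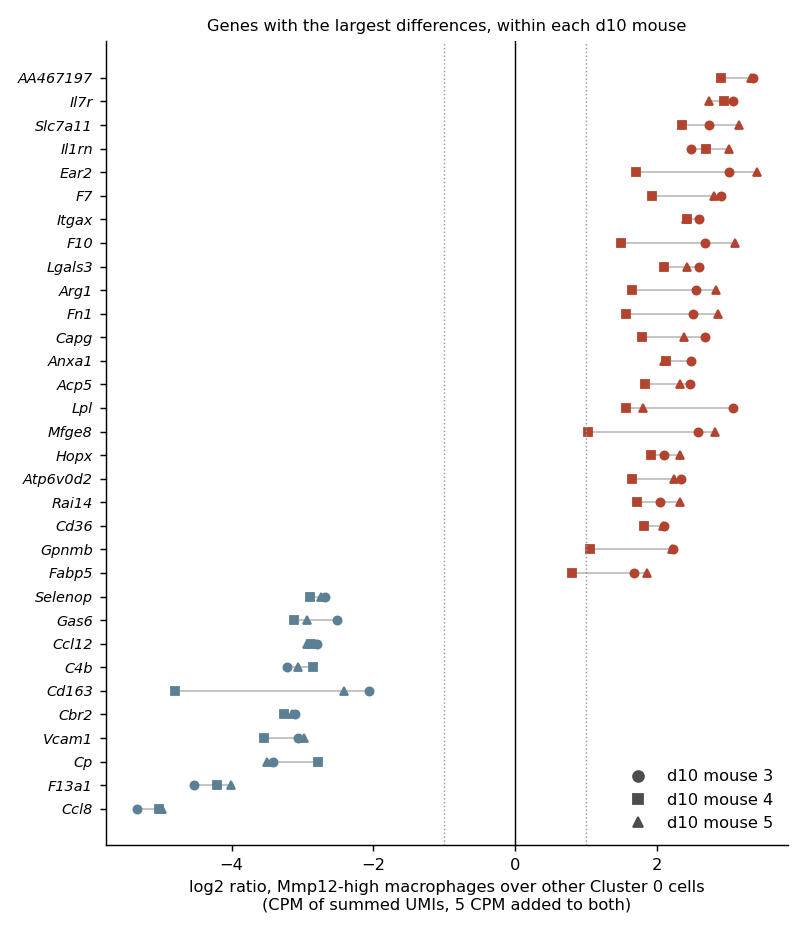
Log2 ratio of CPM (with 5 CPM added) of Mmp12-high cells over the other cluster 0 cells for 32 genes, with 1 point per d10 mouse and dotted lines at 2-fold. Lgals3 and Itgax lie in a narrow band of higher values, and Ccl8, F13a1 and Vcam1 are among the lowest.

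Among genes of the matrix and of clotting, fibronectin (Fn1) had 1279, 2638 and 2013 CPM in the Mmp12-high cells, against 221, 885 and 272 CPM in the other cluster 0 cells. The clotting factors F7 and F10 were also higher, F7 at 106, 137 and 121 CPM against 9.82, 32.2 and 12.96 CPM, and F10 at 102, 148 and 129 CPM against 11.7, 49.1 and 10.6 CPM. Plaur, the receptor of the plasminogen activator urokinase, had 87.1, 141 and 81.6 CPM, against 16.7, 45.4 and 13.3 CPM. Spp1 had 3067, 10990 and 2587 CPM, against 1265, 3243 and 1491 CPM, a log2 ratio of 1.28 ± 0.48 that fell short of the call.

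Among lipid genes, 17 of a list of 20 were measured at this level, 5 were called higher and none lower, with a median log2 ratio of 0.83. Lpl, which releases fatty acids from lipoproteins, had 847, 548 and 1169 CPM, against 95.9, 181 and 331 CPM. The fatty acid receptor Cd36 had 300, 252 and 320 CPM, against 66.4, 67.9 and 71.6 CPM, and the lipid droplet coat Plin2 was also called. Trem2, the lipid-sensing receptor named in many accounts of such macrophages, had 567, 682 and 554 CPM in the Mmp12-high cells and 469, 710 and 505 CPM in the others, and its log2 ratio was 0.12 ± 0.17. Apoe, the lipid carrier, ran the other way, at 17210, 23600 and 16620 CPM against 41500, 45900 and 41010 CPM, just short of a call.

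Of 20 measured lysosomal genes none was called, with a median log2 ratio of -0.05. Of 13 measured genes of the vacuolar proton pump and its MiT/TFE transcription factors, Atp6v0d2, a macrophage and osteoclast subunit of the pump, was called. It had 146, 283 and 150 CPM, against 24.8, 86.7 and 27.8 CPM. Acp5, the tartrate-resistant acid phosphatase known from osteoclasts, had 435, 457 and 408 CPM, against 74.7, 125 and 77.0 CPM (log2 ratio 2.21, but -0.10 without the cells with marker UMIs of another type). The other 11 genes of the osteoclast list did not reach the level for a call. Among 10 measured genes of glutathione and oxidative defence, 3 were higher: the cystine importer Slc7a11, the thioredoxin reductase Txnrd1 and the peroxiredoxin Prdx1. Slc7a11 had 74.8, 119 and 72.0 CPM, against 7.01, 19.4 and 3.62 CPM.

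Alternative activation genes were split. Arg1, Il1rn (the interleukin 1 receptor antagonist) and the signalling inhibitor Socs2 were called higher, while the mannose receptor Mrc1, the hemoglobin scavenger receptor Cd163 and the scavenger receptor Stab1 were called lower, among 10 measured genes. Il1rn had 101, 140 and 147 CPM, against 13.9, 17.5 and 13.8 CPM, and Mrc1 had 404, 444 and 479 CPM, against 1089, 1799 and 1142 CPM. Il7r, a cytokine receptor of lymphocytes that some macrophages also carry, had 119, 128 and 105 CPM, against 9.82, 12.4 and 11.5 CPM. AA467197 had the highest log2 ratio of the genes outside the rule, 3.20 ± 0.26, with 390, 791 and 485 CPM, against 33.5, 102 and 43.7 CPM. The other genes among the 20 largest ratios were Ear2, Capg, Anxa1, Mfge8, Hopx and Rai14, with mean log2 ratios from 2.03 for Rai14 to 2.71 for Ear2.

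Genes of resident and scavenging macrophages were among the lower ones. Of 11 measured genes of the resident list, 6 were lower and none was higher (Cd163, Ms4a7, Gpr34, Fcrls, Selenop and Vcam1), with a median log2 ratio of -1.89. Selenop, the secreted selenium carrier, had 278, 292 and 327 CPM in the Mmp12-high cells, against 1822, 2212 and 2207 CPM in the others. The adhesion molecule Vcam1 had 4.66, 7.49 and 6.68 CPM, against 75.5, 141 and 86.9 CPM, and Gas6, a ligand that bridges dead cells to phagocytes, had 25.6, 28.3 and 18.01 CPM, against 170, 284 and 171 CPM. Of 12 macrophage identity genes, the F4/80 gene Adgre1 and the Fc receptor Fcgr1 were lower, Adgre1 at 126, 109 and 102 CPM against 525, 294 and 400 CPM. Clotting factor F13a1, ceruloplasmin (Cp), the carbonyl reductase Cbr2 and complement C4b completed the 10 smallest ratios with Ccl8, Ccl12, Vcam1, Cd163, Gas6 and Selenop. Of 13 measured monocyte genes outside the rule, S100a4, S100a6 and Fn1 were called higher and F13a1 and Lst1 lower, with a median log2 ratio of 0.43. Ccr2 was higher in each d10 mouse but not called, with values given below.

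Chemokine genes divided by member. The monocyte attractant Ccl8 had 15.3, 19.1 and 20.9 CPM in the Mmp12-high cells, against 819, 782 and 816 CPM in the other cells, the lowest ratio of all called genes outside the rule (log2 ratio -5.12 ± 0.20). Ccl12 had 40.9, 31.2 and 44.7 CPM, against 314, 263 and 375 CPM, and Pf4 was lower as well. Ccl6 had 3125, 4278 and 3131 CPM, against 641, 1665 and 760 CPM, and Ccl9 had 881, 1167 and 1041 CPM, against 322, 580 and 331 CPM, and both were called higher together with Cxcl14. None of the 9 class II genes was called, with a median log2 ratio of 0.05. Of 11 measured genes of glycolysis Pgam1 was called higher, with a median log2 ratio of 0.95 over the list.

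The Mmp12-high cells varied among themselves. At 5000 UMIs per cell, Arg1, Gpnmb and Fabp5 were all detected in 25 of 128, 45 of 147 and 26 of 146 cells of mice 3, 4 and 5, and none of the 3 in 37, 24 and 39 cells. Cells were divided by whether an Arg1 UMI was seen after thinning (58, 104 and 73 cells with, and 70, 43 and 73 cells without). Class II genes were lower in the Arg1-detected cells of every d10 mouse: H2-Aa had 1403, 329 and 1820 CPM in them, against 5275, 3147 and 5651 CPM in cells with no Arg1 UMI, and Cd74 had 5695, 1185 and 6307 CPM, against 16760, 9400 and 15810 CPM. Spp1 was higher in the Arg1-detected cells, at 4360, 11980 and 3933 CPM against 1510, 6951 and 784 CPM. Acp5 (613, 510 and 566 CPM, against 222, 256 and 198 CPM) and the collagen-degrading cathepsin Ctsk (26.8, 23.7 and 31.1 CPM, against 1.48, 6.91 and 2.73 CPM) were higher too.

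Gpnmb and Fabp5 did not follow Arg1 in every mouse. Gpnmb had 836, 755 and 495 CPM in Arg1-detected cells, against 347, 1288 and 485 CPM in cells without, so mouse 4 ran the other way. Fabp5 had 1842, 1434 and 1808 CPM, against 900, 1800 and 730 CPM. C1qa was close in both classes, at 2708, 2425 and 2968 CPM against 3075, 2398 and 2737 CPM. The classes are ranges of 1 detected gene, not cell types, and the Arg1-detected cells were the deeper ones, with medians of 26754, 29317 and 24750 UMIs, against 18412, 17952 and 19202 UMIs.

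**Figure D3:**
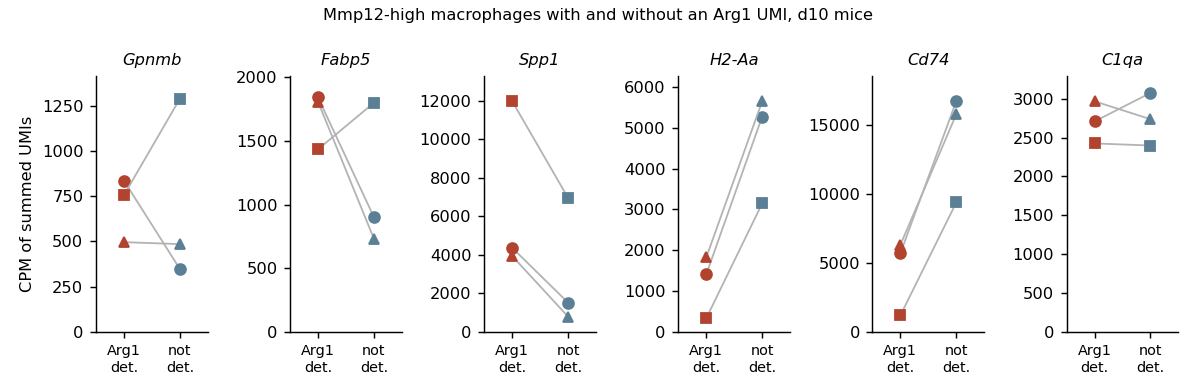
CPM of Gpnmb, Fabp5, Spp1, H2-Aa, Cd74 and C1qa in Mmp12-high cells of the 3 d10 mice with and without an Arg1 UMI after thinning to 5000 UMIs, with 1 line per mouse. H2-Aa and Cd74 are lower and Spp1 is higher in the Arg1-detected cells of every mouse, while Gpnmb and Fabp5 run in different directions.

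The cells also varied with their Mmp12 level, which was used by the rule and is given as a description. In the cells above their mouse's median of Mmp12 per 10000 UMIs, Lgals3 had 4595, 4340 and 4457 CPM, against 1857, 1905 and 1763 CPM in the cells at or below it. Spp1 had 4574, 14020 and 3217 CPM, against 1254, 7858 and 1860 CPM, and Gpnmb had 783, 924 and 749 CPM, against 409, 808 and 189 CPM. Apoe had 15290, 16180 and 12260 CPM, against 19510, 31270 and 21670 CPM, and C1qa had 2485, 1681 and 2147 CPM, against 3332, 3182 and 3707 CPM. The direction was the same in all 3 mice for each of these 5 genes, but not for Fabp5, which had 1744, 1332 and 1844 CPM above the median, against 1014, 1688 and 763 CPM at or below it, nor for Trem2 and Igf1.

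Promoter windows of Mmp12, Gpnmb and Itgax are shown because each holds an AP-1 match, and they were picked for it after a look at several high genes. The windows of Cd9 and Lgals3 and the 3 windows of Acp5 hold none. They are from RefSeq on GRCm38.p6 and run from 250 bases before to 50 bases after an annotated start. Mmp12 (ENSMUSG00000049723, chr9:7344381-7369499, plus strand) has 2 such windows, and the one shown is chr9:7347124-7347423, whose start lies within the annotated gene. That of Gpnmb (ENSMUSG00000029816, chr6:49036546-49070929, plus strand) is chr6:49036268-49036567, and that of Itgax is chr7:128129300-128129599, both on the plus strand. Capitals mark TGANTCA matches, the AP-1 motif, in all 3, and in Mmp12 also the CACATGA match of the M-box of MiT factors.
Mmp12: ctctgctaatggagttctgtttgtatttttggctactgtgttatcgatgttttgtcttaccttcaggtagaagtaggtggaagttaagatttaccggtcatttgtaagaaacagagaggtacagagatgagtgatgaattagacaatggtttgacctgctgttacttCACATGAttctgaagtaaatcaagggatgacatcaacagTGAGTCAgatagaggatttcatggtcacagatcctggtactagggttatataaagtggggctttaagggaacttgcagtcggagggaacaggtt
Gpnmb: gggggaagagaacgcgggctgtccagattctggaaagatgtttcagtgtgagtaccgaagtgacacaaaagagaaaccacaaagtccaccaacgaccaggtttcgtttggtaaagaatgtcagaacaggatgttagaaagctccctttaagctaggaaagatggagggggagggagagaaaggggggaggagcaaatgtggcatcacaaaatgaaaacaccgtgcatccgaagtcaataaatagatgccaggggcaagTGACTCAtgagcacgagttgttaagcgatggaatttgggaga
Itgax: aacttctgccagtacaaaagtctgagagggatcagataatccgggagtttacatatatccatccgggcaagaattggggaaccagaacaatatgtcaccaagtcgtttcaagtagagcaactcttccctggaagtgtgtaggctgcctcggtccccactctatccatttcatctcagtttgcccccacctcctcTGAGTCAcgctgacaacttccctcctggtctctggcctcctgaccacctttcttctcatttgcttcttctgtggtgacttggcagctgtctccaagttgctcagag
The first base of the AP-1 match lies 44 bases before the annotated start in Mmp12, 56 before it in Itgax and 8 after it in Gpnmb, and that of the Mmp12 M-box match 83 before. The other Mmp12 window, at the annotated start of the gene, holds no AP-1 match and a PU.1 match (GAGGAAGT). Of the 73 higher genes, 57 had a promoter in the table, and 12 of those (21.1%) held an AP-1 match, as did 9 of 58 lower genes (15.5%), 164 of 2320 measured genes (7.07%) and 2425 of all 27025 genes with a promoter (8.97%). For the M-box (TCATGTG) the shares were 5.26% of the higher, 5.17% of the lower, 3.23% of the measured and 4.31% of all genes. For the E-box (CACGTG) they were 10.5, 0.0, 12.5 and 8.09%, and the CLEAR motif (TCACGTGA, which holds an E-box) was in none of the higher or lower genes, 2.89% of the measured and 1.12% of all genes. PU.1 matches were in 7.02, 10.3, 4.87 and 3.69%. All motifs were searched on both strands, a match is not evidence of binding, and no test was made. Promoters of Arg1 (ENSMUSG00000019987, chr10:24915221-24927484, minus strand) and Fabp5 (ENSMUSG00000027533, chr3:10012548-10016607, plus strand) are not shown.

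The next question was how the Mmp12-high cells differed between d10 and 48h. The rule does not use time, but the 48h mice held 17 and 10 Mmp12-high cells, under the minimum of 20 per mouse set for a test, and the fit given here is the alternative with a minimum of 10. UMIs were summed per mouse and tested with edgeR's quasi-likelihood test, 3 mice against 2, and every adjusted p below is from edgeR with Benjamini-Hochberg adjustment over all genes of its fit. Of 10399 genes, 570 were higher at d10 (5.48%) and 356 lower (3.42%), with a median log2 fold change of 0.17. With DESeq2 the counts were 489 higher and 503 lower. Without mouse 1 they were 222 and 78, without mouse 2 they were 212 and 104, and without mouse 5 they were 340 and 188. The summed 48h cells held 247883 and 124651 UMIs and had the lower Mmp12 level given above, so time and Mmp12 level cannot be told apart in this fit. Nor can time and the kind of cell, since the 48h cells had few or no UMIs of Gpnmb, Arg1 and Fabp5. Words such as rose and fell below compare the cells that met the rule at each time.

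Several of the named genes rose at d10. Besides Fabp5 (log2 fold change 6.21, SE 0.32, adjusted p = 1.71e-06, and 7.86 without mouse 1), Lgals3 had 3352, 3142 and 3207 CPM at d10, against 952 and 626 CPM at 48h (2.33, SE 0.21, adjusted p = 6.86e-05). Lyz2 had 21830, 21670 and 19760 CPM, against 1832 and 706 CPM (4.33, SE 0.36, adjusted p = 2.9e-05, and 5.31 without mouse 1). Fn1 had 1279, 2638 and 2013 CPM, against 96.8 and 8.02 CPM (5.26, SE 0.51, adjusted p = 9.88e-05, but 8.34 without mouse 1 and 4.65 without mouse 2). In each of these the times did not overlap, and how many of the other tested genes share this was not counted. Acp5 had 435, 457 and 408 CPM, against 12.1 and 8.02 CPM (5.64, SE 0.33, adjusted p = 2.24e-06), and Ccl6 had 3125, 4278 and 3131 CPM, against 178 and 144 CPM (4.74, SE 0.25, adjusted p = 1.71e-06). The 48h values rest on 3 and 1 UMIs for Acp5, 8 and 1 for Fabp5 and 24 and 1 for Fn1. The size of these differences is therefore uncertain beyond the SE.

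Further genes with few or no UMIs at 48h were given by ratios of the summed groups. Arg1, with 12254 UMIs at d10 and none at 48h, was at least 144-fold higher at d10, with 3 counts over the 48h group as the floor. By the same floor Atp6v0d2 was at least 24.9-fold, F10 at least 16.0-fold and F7 at least 15.3-fold higher. Gpnmb, with 7117 UMIs at d10 and 2 at 48h, had a ratio of 125 (exact 95% interval 34.7 to 1034), and Il7r, with 3 UMIs at 48h, one of 14.7 (5.01 to 71.3). The floors and intervals cover counting error only.

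Other genes did not pass the test or were lower at d10 than in the 27 cells of 48h. Lpl had 847, 548 and 1169 CPM at d10 and 1061 and 947 CPM at 48h (log2 fold change 0.08, SE 0.26, adjusted p = 0.896). AA467197 had 390, 791 and 485 CPM, against 343 and 538 CPM (0.71, SE 0.30, adjusted p = 0.172). Cd36 fell to 300, 252 and 320 CPM at d10, against 956 and 874 CPM at 48h (-1.34, SE 0.17, adjusted p = 0.000608). Ccl12 fell to 40.9, 31.2 and 44.7 CPM, against 4115 and 690 CPM (-5.69, SE 0.55, adjusted p = 9.88e-05, but -3.75 without mouse 1 and -6.44 without mouse 2), and Cd14, the endotoxin co-receptor, fell to 280, 311 and 217 CPM, against 1166 and 1067 CPM (-1.73, SE 0.19, adjusted p = 0.000247). C1qa fell as well, to 2870, 2419 and 2871 CPM against 5144 and 6105 CPM (-0.72, SE 0.15, adjusted p = 0.0103), and without mouse 2 its adjusted p was 0.0682.

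By list, 14 of 20 lipid genes rose and 1 (Cd36) fell at d10 in the Mmp12-high cells, with a median log2 fold change of 1.65. Without mouse 1 the count that rose was 10 and without mouse 2 it was 9. Of 22 lysosomal genes 12 rose (median 1.00), among them the cathepsins Ctsd, at 3793, 4539 and 3312 CPM against 754 and 88.3 CPM, and Ctsl, at 675, 1146 and 632 CPM against 129 and 64.2 CPM. Without mouse 2 the count that rose was 7. Of 16 proton pump and MiT/TFE genes 9 rose and none fell (median 1.13), and without mouse 1 or without mouse 2 the count was 4. Of 14 S phase genes 10 fell and none rose (median -1.70), Pcna to 129, 98.6 and 118 CPM against 270 and 401 CPM (adjusted p = 0.0044, and 0.0755 without mouse 2). Without mouse 1 the count that fell was 5, without mouse 2 it was 1 and without mouse 5 it was 6. Of 13 tested inflammatory genes 3 fell and none rose (Il1b, Cxcl2 and Ccl4; median -0.80, or -0.86 with genes at 0 set at their floor), Ccl4 to 17.6, 61.9 and 35.7 CPM against 1089 and 1195 CPM. Leaving out each mouse in turn gave 2 to 5 inflammatory genes that fell, and the adjusted p of Il1b was 0.02 with all mice, 0.239 without mouse 1, 0.147 without mouse 2 and 0.0632 without mouse 5. No list count here was tested as a list.

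**Figure D4:**
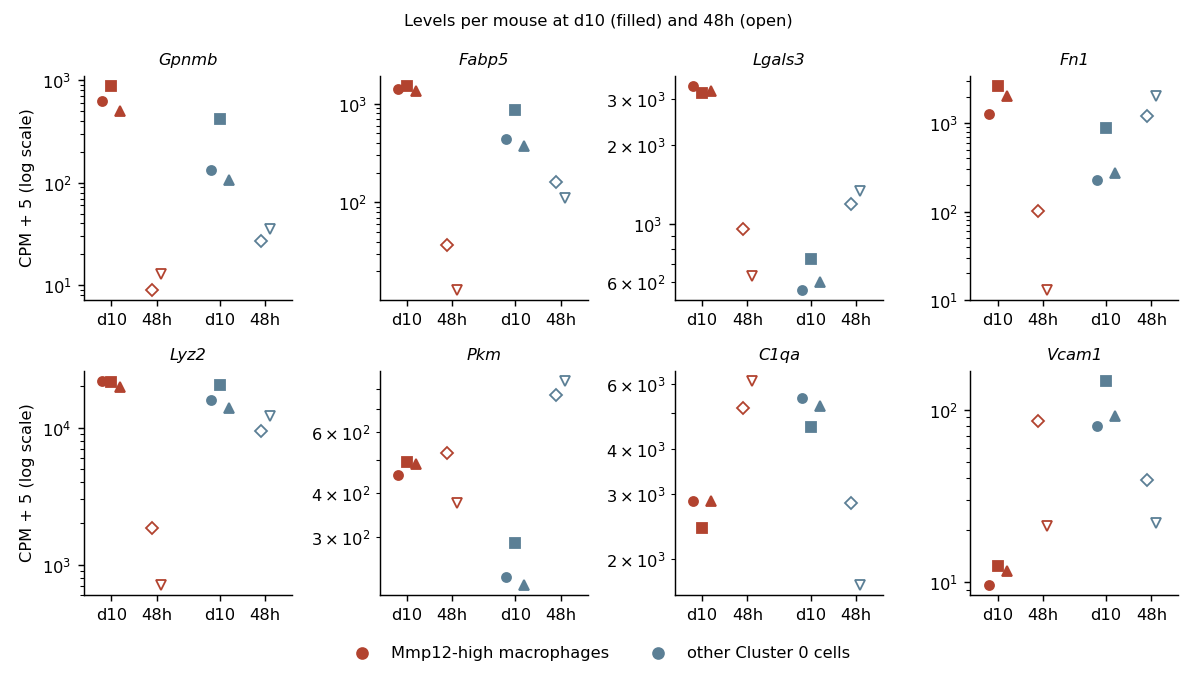
CPM with 5 CPM added, on a log axis, of Gpnmb, Fabp5, Lgals3, Fn1, Lyz2, Pkm, C1qa and Vcam1 in Mmp12-high cells and in the other cluster 0 cells, with 1 point per mouse (filled, d10; open, 48h). Lgals3 and Fn1 stand higher at d10 in the Mmp12-high cells, while in the other cells the d10 points lie lower for Lgals3 and, in mice 3, 4 and 5, lower for Fn1.

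Whether the Mmp12-high cells and the other cluster 0 cells differed in time was tested by an interaction term in an edgeR fit of both populations with mouse as a term, a test added after the data had been seen. A positive value means that the log2 fold change of d10 over 48h was higher in the Mmp12-high cells. Of 12110 genes, 885 had a positive (7.31%) and 248 a negative value (2.05%) past an adjusted p of 0.05, with a median log2 value of 0.30 over all genes. With DESeq2 size factors in the same fit the counts were 553 and 301 and the median was 0.11, and with DESeq2's own test they were 444 and 388. Without mouse 2 the counts were 457 and 132, and without mouse 1 they were 598 and 118. In the other cluster 0 cells on their own, 1621 of 13690 genes were higher at d10 (11.8%) and 1857 lower (13.6%), but 236 and 356 without mouse 1, 68 and 106 without mouse 2, and 730 and 832 without mouse 5.

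What the other cells are differs by time. Of the monocyte genes of the rule, Vcan, Plac8 and Ly6c2 fell in them at d10, Plac8 to 74.3, 47.9 and 106 CPM at d10, against 944 and 969 CPM at 48h (adjusted p = 0.00271). Chil3 had 20.8, 540 and 47.6 CPM at d10 and 1534 and 2803 CPM at 48h, and did not pass (adjusted p = 0.0983). The rule keeps cells with such counts out of the Mmp12-high cells at both times. Neutrophil markers in the other cells summed to 47.6, 95.5 and 119 CPM at d10, against 1515 and 3380 CPM at 48h, and red blood cell markers to 166, 0.510 and 10.2 CPM at d10, against 2794 and 177 CPM at 48h. In the Mmp12-high cells the neutrophil markers summed to 124, 86.8 and 80.5 CPM at d10 and 20.2 and 104 CPM at 48h. The part of this make-up in the interaction values was not tested.

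Lgals3 gave opposite differences in the populations. In the other cluster 0 cells it fell to 553, 729 and 591 CPM at d10, against 1187 and 1330 CPM at 48h (log2 fold change -0.97, SE 0.15, adjusted p = 0.00839, but 0.0509 without mouse 1 and 0.0866 without mouse 2), and the interaction was 3.37 (SE 0.22, adjusted p = 7.45e-08). Capg, an actin-capping protein, had 733, 709 and 612 CPM at d10 and 367 and 369 CPM at 48h in the Mmp12-high cells, while in the others it had 110.6, 201 and 113.5 CPM at d10 and 580 and 636 CPM at 48h (interaction 3.38, SE 0.23, adjusted p = 1.33e-07). Anxa1, a phospholipid-binding protein of phagocytes, showed the same pattern, at 379, 333 and 316 CPM against 32.3 and 8.02 CPM in the Mmp12-high cells and 63.9, 72.6 and 69.9 CPM against 189 and 241 CPM in the others (interaction 5.75, SE 0.32, adjusted p = 1.11e-08, and 7.68 without mouse 1). All 3 genes were higher in the Mmp12-high than in the other cells at d10 and lower at 48h.

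Of the 4 genes of the label, Fabp5, Arg1 and Gpnmb had a positive interaction. The value of Mmp12 was -0.43 and carries no test, because its counts place a cell in either population. Fabp5 had an interaction of 4.33 (SE 0.47, adjusted p = 1.39e-05, and 5.66 without mouse 1). In the other cells it was also higher at d10 (439, 860 and 365 CPM against 158 and 107 CPM, log2 fold change 2.11, SE 0.42, adjusted p = 0.0166), with an adjusted p of 0.0819 without mouse 1 and 0.132 without mouse 2. Arg1 had an adjusted p of 1.53e-07, with 83.2, 590 and 117 CPM at d10 and 328 and 316 CPM at 48h in the other cells. Gpnmb had an adjusted p of 0.00491, which became 0.158 without mouse 1 and 0.144 without mouse 2. Lpl (adjusted p = 0.106), Cd36 (0.485), Itgax (0.198) and Mrc1 (0.616) did not pass.

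Of 15 tested genes of the resident list 10 had a negative interaction and none a positive one, with a median of -1.46, and without mouse 1 the count was 6. C1qa had 2870, 2419 and 2871 CPM at d10 against 5144 and 6105 CPM at 48h in the Mmp12-high cells, and 5476, 4568 and 5228 CPM against 2841 and 1695 CPM in the others (interaction -1.90, SE 0.19, adjusted p = 6e-06). Vcam1 had 4.66, 7.49 and 6.68 CPM against 80.7 and 16.0 CPM in the Mmp12-high cells, and 75.5, 141 and 86.9 CPM against 34.2 and 17.1 CPM in the others (-4.71, SE 0.47, adjusted p = 5.89e-06, and 0.136 without mouse 1). The 12 macrophage identity genes, a list that also holds C1qa, were split, with 6 negative (among them Adgre1, at -1.82, SE 0.26, adjusted p = 0.000216, and 0.0995 without mouse 1) and 3 positive (Cd68, Lyz2 and Itgam). Of 9 class II genes 6 had a negative value (H2-Aa, H2-Ab1, H2-Eb1, H2-DMb1, Cd74 and Cd86) and Ctss a positive one, with a median of -1.69. Without mouse 2 the count was 3 negative, and H2-Aa then had an adjusted p of 0.0627.

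Most glycolysis genes passed the test as lower at d10 in the other cells, and none did in the Mmp12-high cells. The difference between the populations passed the interaction test for most of them. Of 16 genes 14 had a positive interaction and none a negative one, with a median of 2.12, and leaving out each mouse in turn gave 12 to 14. In the Mmp12-high cells 5 of the 16 rose (Gpi1, Pfkl, Pfkp, Aldoa and Pgam1; median 0.66), with 1 to 4 when a mouse was left out, and in the other cells 13 fell and none rose (median -0.86), with 7 without mouse 1 and 4 without mouse 2. Pkm, the last enzyme of the pathway, had 447, 488 and 480 CPM at d10 and 516 and 369 CPM at 48h in the Mmp12-high cells, and 225, 283 and 213 CPM against 762 and 835 CPM in the others (interaction 2.13, SE 0.20, adjusted p = 2.57e-06). Gapdh had 1252, 1250 and 1183 CPM at d10 and 1472 and 1324 CPM at 48h in the Mmp12-high cells, and 678, 746 and 633 CPM against 1616 and 1592 CPM in the others (1.39, SE 0.15, adjusted p = 9.88e-06). Ldha, which turns pyruvate into lactate, had an interaction of 1.51 (SE 0.16, adjusted p = 1.33e-05).

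Monocyte genes outside the rule moved in the same way. Of 16 such genes 11 had a positive interaction and 1 (Lst1) a negative one, with a median of 4.32. Their relation to the 4 monocyte genes of the rule makes this list the least independent of it. The rule leaves cells with monocyte counts among the other cells. Plac8 there had 944 and 969 CPM at 48h, against 74.3, 47.9 and 106 CPM at d10. The values of this list are therefore a description, and nothing is read from their adjusted p. Ccr2, the receptor that brings monocytes into tissue, had 692, 529 and 951 CPM at d10 and 186 and 249 CPM at 48h in the Mmp12-high cells, and 389, 291 and 533 CPM against 714 and 949 CPM in the others (3.12, SE 0.17, adjusted p = 1.01e-08). S100a4, a calcium-binding protein of motile cells, had 556, 420 and 683 CPM against 242 and 56.2 CPM, and 232, 155 and 281 CPM against 1678 and 2399 CPM (5.17, SE 0.34, adjusted p = 8.41e-08, but 7.21 without mouse 1 and 4.43 without mouse 2). In the other cells all 14 S phase genes fell, with 3 without mouse 1 and 1 without mouse 2, and the median interaction of that list was 0.02.

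**Figure D5:**
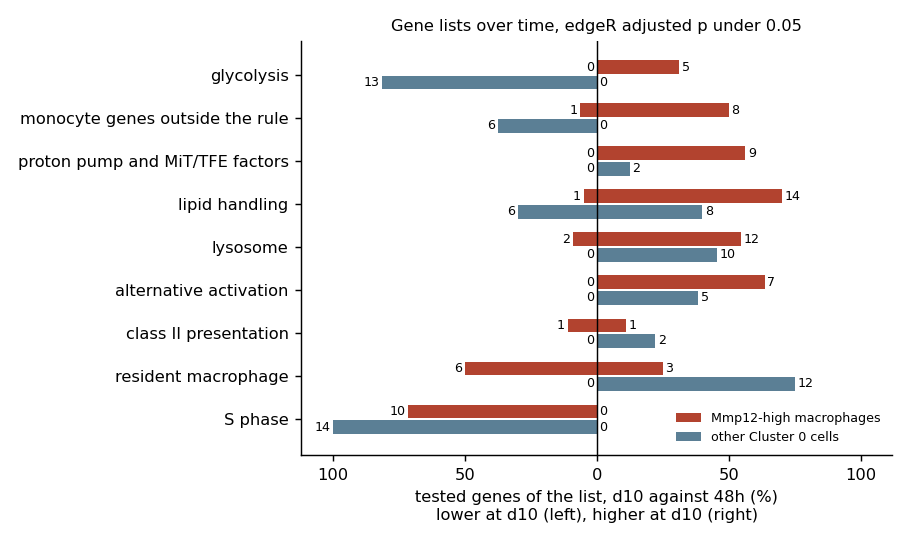
Percent of the tested genes of 9 lists that were higher or lower at d10 than at 48h (edgeR adjusted p under 0.05), in Mmp12-high cells and in the other cluster 0 cells, with the counts printed. Of 16 glycolysis genes 5 rose in the Mmp12-high cells and 13 fell in the others, and S phase genes fell in both.

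The difference in Mmp12 level was limited by taking, at both times, only Mmp12-high cells with 5 to 9 Mmp12 UMIs, a choice made after the data had been seen. They numbered 40, 38 and 46 at d10 and 9 and 9 at 48h, with 415, 319 and 416 CPM of Mmp12 at d10 and 410 and 535 CPM at 48h. Both 48h numbers were under even the lower minimum of cells per mouse stated above, and no fit without a mouse is given for this choice. The interaction then gave 658 positive and 168 negative genes. It was past the threshold for Lgals3 (adjusted p = 6.3e-18), Fabp5 (2.59e-11), Gpnmb (0.0269), C1qa (6.76e-10) and Pkm (3.25e-09). It was not past it for Apoe (0.0557), Cd9 (0.673) and Il1rn (0.123). In these cells of 48h, Gpnmb and Fabp5 each had 0.0 CPM in mouse 1 and 9.23 CPM in mouse 2. Nothing is therefore read from the adjusted p of Gpnmb and Fabp5 here. For Mmp12 itself the interaction was -2.53, but the rule and the choice limit its counts, so it carries no test. Lgals3 had a smaller adjusted p here than with all Mmp12-high cells (7.45e-08), although the cells were fewer, so no strength is read from its size. Among the lists 12 of 16 glycolysis genes were positive, 9 of 15 resident genes were negative and 6 of 9 class II genes were negative.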

How the data were processed

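Members and gene lists were chosen with earlier results of these data known. The authors deposited raw UMI counts per gene and barcode, and a table of 23797 kept cells with counts, the percent of mitochondrial UMIs, a cell type, a cluster and UMAP scores by the authors, of which the UMAP scores were not used. Per the submitters' processing notes the tools were Cell Ranger 6.0.2 and Seurat 4.0.5 with mm10. Cell Ranger is 6.0.0 per the file headers, and which version made the files is not given in the sources used here. Kept cells summed to 45887945 to 78351722 UMIs per library.

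UMIs were summed per mouse over the Mmp12-high cells and over the other cluster 0 cells, and divided by their total to give CPM. The contrast of these sums was called by size alone (2-fold in each d10 mouse, 5 CPM added, 50 CPM in the mean of either), since the rule uses it. Time was tested with edgeR 4.0.16 in R 4.3.3 (filterByExpr, TMM, quasi-likelihood F test, Benjamini-Hochberg adjustment, threshold 0.05), and a standard error is the absolute log2 value divided by the square root of F. The minimum of 20 cells per mouse was not met at 48h, where values without a test had been foreseen, and the fit with a minimum of 10 was used instead. The interaction fit was added after the data were seen. DESeq2 1.42.0 was an alternative. The edgeR fits with TMM were tested on simulated data with planted changes and no mouse effect shared by the populations. The DESeq2 and size-factor alternatives were not. The mouse is the replicate, and no label ties the mice to litters or batches. The edgeR p-values rest on a spread between mice that is pooled in part over all genes, not on that of the gene alone. Shares were compared with an exact permutation test over mice (scipy 1.17.1). Depth comparisons thinned cells to 5000 UMIs. Barcodes outside the authors' table were left out of all comparisons.

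Named genes are the 20 largest and 10 smallest mean log2 ratios among called genes, without the rule's genes, gene models, mitochondrial and ribosomal protein genes, plus genes of the lists: those called and up to 4 others per list by level. Some genes named in the results on time and in the division of cells by Arg1 fall outside this rule and were chosen after their values were seen. Lists are described by counts and medians, with no list test. Gene positions are from GENCODE M21 on GRCm38. The lysosomal genes that fell with time are not reported here.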

Additional observations from a re-analysis of the deposited data

Results flagged for a closer look

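The difference of d10 over 48h differed between the Mmp12-high cells and the other cluster 0 cells for 36 of 47 named genes, by the interaction term of the edgeR fit with Benjamini-Hochberg adjustment over all genes. Over all 12110 genes 885 were positive and 248 negative. Most of the named genes were chosen for their ratio at d10, which is a part of the interaction, so nothing is read from their count. Fn1, S100a4 and Ccr2 belong to the monocyte list, whose values are a description. The adjusted p stands in brackets after each gene. The value was positive (a higher log2 fold change in the Mmp12-high cells) for AA467197 (1.36e-06), Il7r (0.00105), Il1rn (0.000631), Ear2 (1.8e-05), F7 (0.0364), F10 (0.000521), Lgals3 (7.45e-08), Arg1 (1.53e-07), Fn1 (8.96e-08), Capg (1.33e-07), Anxa1 (1.11e-08), Acp5 (0.000277) and Hopx (6.72e-07), and for Rai14 (6.3e-05), Gpnmb (0.00491), Fabp5 (1.39e-05), Spp1 (6.72e-07), Lyz2 (1.61e-06), Trem2 (0.0168), Cd9 (0.00464), Pkm (2.57e-06), Ldha (1.33e-05), Gapdh (9.88e-06), Ccl6 (3.51e-09), S100a4 (8.41e-08) and Ccr2 (1.01e-08). It was negative for Ccl8 (1.77e-06), Vcam1 (5.89e-06), Ccl12 (2.13e-06), Gas6 (0.0283), Selenop (0.000197), Apoe (0.0127), C1qa (6e-06), Adgre1 (0.000216), H2-Aa (0.0014) and Cd74 (0.000501).

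Leaving out 1 mouse moved some of these past the threshold. Without mouse 1 the adjusted p was 0.985 for Ccl8, 0.179 for Selenop, 0.136 for Vcam1, 0.252 for Apoe, 0.0995 for Adgre1, 0.158 for Gpnmb, 0.225 for F7 and 0.0536 for Gas6. Without mouse 2 it was 0.144 for Gpnmb, 0.286 for F7, 0.289 for Gas6 and 0.0627 for H2-Aa, and without mouse 3 it was 0.0559 for Apoe. Ccl8 had 15.3, 19.1 and 20.9 CPM in the Mmp12-high cells at d10, against 48.4 and 0.0 CPM at 48h, and 819, 782 and 816 CPM at d10 in the other cells, against 11.2 and 0.408 CPM at 48h. The named genes F7, F10 and Arg1 had no UMI in the Mmp12-high cells of 48h, so the size of their interaction is not given.

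Barcodes that the authors' table leaves out also hold a few cells that meet the counts of the rule: 8 in mouse 5, 3 in mouse 4, 1 in mouse 3 and 1 in mouse 1. Of the 8 in mouse 5, 2 had at least 35% mitochondrial UMIs and 6 had at least 7000 genes.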

How the results depend on the processing

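The share of Mmp12-high cells was higher at d10 under every alternative run, by 4.52 to 6.81 points of cluster 0 and 1.17 to 3.23 points of kept cells, the 1.17 being without cells that carry 5 or more marker UMIs of another type, which leaves 3, 106 and 21 Mmp12-high cells in mice 3, 4 and 5. Without those cells 40 genes were higher than in the other cluster 0 cells, and the log2 ratio of Acp5 was -0.10, against 2.21; the cause was not tested. A fold of 1.5 gave 155 higher and 203 lower genes, and a fold of 3 gave 21 and 28. With no CPM filter, calls in either direction numbered 239 of 20415 genes, against 145 of 2896 with it, so more genes passed but they were a smaller share of those tested, 0.554% higher and 0.617% lower. Leaving out a d10 mouse gave 78 to 106 higher and 82 to 97 lower genes. Of the log2 ratios of named genes under the alternatives, 489 stayed within 1 SD, 110 moved by more and 1 changed sign.

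For time in the Mmp12-high cells, no filter on low counts gave 1029 higher genes, thinning to 5000 UMIs gave 273 higher and 118 lower, members with 5 to 9 Mmp12 UMIs gave 291 and 178, and leaving out a mouse gave 212 to 548 and 78 to 397. In the other cluster 0 cells leaving out a mouse gave 68 to 2094 higher and 106 to 2365 lower genes, leaving out cells with markers of another type gave 736 and 789, and thinning to 3000 UMIs 937 and 1177. For the interaction, DESeq2 gave 444 positive and 388 negative genes, DESeq2 size factors in edgeR 553 and 301, and leaving out a mouse 457 to 1022 and 118 to 312. Alternatives with at least 3 Mmp12 UMIs, thinning of the members, 5 to 9 UMIs, the interaction and the other cells without 1 to 4 Mmp12 UMIs were chosen after the data were seen. No paired analysis was possible because the mice of the 2 times share no replicate number. The 27 cells of 48h limit what can be seen of low genes there.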

Other observations

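Growth factor and iron genes of the Mmp12-high cells also differed between the times (edgeR adjusted p, as above). Of 15 tested growth factor and repair genes 5 rose and 1 fell at d10, with 3 that rose without mouse 1 and 2 without mouse 2. In the other cluster 0 cells 5 of 16 such genes rose and 3 fell. Pdgfb, a ligand of fibroblast and pericyte receptors, fell in the Mmp12-high cells to 61.9, 45.7 and 45.6 CPM at d10, against 278 and 289 CPM at 48h (log2 fold change -2.15, SE 0.22, adjusted p = 0.00013). Tgfbi, a matrix protein induced by TGF-beta, had 510, 748 and 597 CPM at d10 and 351 and 361 CPM at 48h (1.12, SE 0.21, adjusted p = 0.00742, but 0.0859 without mouse 1 and 0.0799 without mouse 2).

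Of 12 tested iron and heme genes 6 rose and 1 (Tfrc) fell, with 4 that rose without mouse 2. Of all genes tested in the Mmp12-high cells 5.48% rose and 3.42% fell. In the other cluster 0 cells 7 of 13 iron and heme genes rose and Tfrc fell too. The interaction passed as positive for Hmox1 and Ftl1 and as negative for Trf. Hmox1, which breaks down heme, had 157, 159 and 156 CPM at d10, against 68.6 and 32.1 CPM at 48h (1.81, SE 0.29, adjusted p = 0.00254, and 2.69 without mouse 1), and Fth1, the ferritin heavy chain, had 19890, 19450 and 19130 CPM, against 14700 and 13700 CPM (0.78, SE 0.14, adjusted p = 0.00488). The transferrin receptor Tfrc fell to 12.3, 11.6 and 6.39 CPM, against 72.6 and 48.1 CPM (-2.33, SE 0.45, adjusted p = 0.00822, but 0.253 without mouse 1).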
